A study of Mus musculus with 12 samples.

Results

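The 37 genes described here encode the machinery that burns fatty acids in the hepatocyte and the targets of PPAR alpha, the nuclear receptor that drives it. They were taken by symbol from a list of mitochondrial and peroxisomal beta-oxidation genes, a ketone body gene and known PPAR alpha targets. All 37 were found among the 37141 gene rows of the count table, and 35 passed the filter on low counts and were tested. The members not tested were Acadvl and Fgf21. Mouse livers were perfused and hepatocytes isolated by flow sorting, 500000 cells a library, in 4 groups of 3 samples. All 12 samples, controls included, came from mice of the strain Yapflox/flox; Tazflox/flox. The groups were uninjured controls with an effective wild-type genotype (ctrl), controls 48 h after 1 ml/kg carbon tetrachloride in corn oil (ctrl + CCl4), knockouts without injury (Yap/Taz KO) and knockouts 48 h after the same injury (Yap/Taz KO + CCl4). Each knockout mouse had been given 5e11 genome copies of AAV8-TBG-Cre, a vector whose liver promoter drives Cre in hepatocytes, and 3 weeks passed before injury or collection. No control vector or vehicle injection is named, so any effect of either cannot be told apart from that of the knockout or the injury. The sources used here give neither the animals' age nor the sort gate. The study asked how hepatocytes lacking YAP and TAZ, the effectors of the Hippo pathway, respond to acute injury.

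Fatty acids enter beta-oxidation as acyl-CoA esters, made by acyl-CoA synthetases. Carnitine carries long chains into mitochondria, where a repeating spiral of dehydrogenation, hydration, dehydrogenation and thiolysis shortens them, while peroxisomes shorten very long chains first. PPAR alpha, bound to DNA with RXR on paired half-sites, switches on genes of each of these steps in the liver, most of all during fasting. Carbon tetrachloride is turned into a toxic radical by cytochrome P450 enzymes in hepatocytes near the central vein.

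Total counts ranged from 1617761 to 3028951 per library. Levels are given as CPM, the counts scaled to 1000000 per TMM-adjusted library total, always in the order of replicates 1 to 3, and changes as log2 fold changes from edgeR's quasi-likelihood test with Benjamini-Hochberg adjustment over the 10780 genes tested. Yap1 stood at 9.65 to 22.2 CPM in Yap/Taz KO against 40.3 to 71.8 in ctrl, and at 14.2 to 14.8 against 50.6 to 65.7 after injury. Wwtr1, which encodes TAZ, stood at 10.1 to 18.3 against 24.2 to 57.6 CPM, and at 19.9 to 25.3 against 32.6 to 34.8 after injury. None of these pairs of ranges overlapped, but none of the differences passed edgeR's threshold (adjusted p from 0.0995 to 0.983). The summed level of 9 hepatocyte markers was 138600 to 174600 CPM in ctrl and 82030 to 102400 in ctrl + CCl4, and 159300 to 187100 in Yap/Taz KO and 115800 to 138100 in Yap/Taz KO + CCl4. Of these 9 markers 5 fell in controls and 2 in knockouts. The 10 macrophage and Kupffer cell markers summed to 505 to 2719 CPM in ctrl and 2331 to 4129 in ctrl + CCl4, and to 232 to 1119 in Yap/Taz KO and 1877 to 2877 in Yap/Taz KO + CCl4, with 2 and 3 of the 10 rising. The 8 monocyte and neutrophil markers summed to 23.7 to 113 CPM in ctrl and 172 to 303 after injury, and to 7.24 to 23.8 and 157 to 221 in knockouts, with 4 and 7 of the 7 tested rising. The 7 cholangiocyte markers, 2 of them tested, summed to 41.2 to 69.5 CPM in ctrl and 381 to 459 in ctrl + CCl4. They summed to 38.5 to 69.8 in Yap/Taz KO and 92.6 to 220 in Yap/Taz KO + CCl4, with 1 rising in each genotype. Of these markers Cftr was at 0 in all groups but ctrl + CCl4, and Tspan8 was at 0 in ctrl + CCl4 and Yap/Taz KO. The sum of 8 stellate cell markers went from 286 to 1255 to 1056 to 2040 CPM in controls and from 251 to 776 to 1621 to 1822 in knockouts, with 3 and 4 of the 8 rising. No macrophage or stellate marker was at 0 in any group, and of the monocyte and neutrophil markers Csf3r was at 0 in Yap/Taz KO. Of 6 adipocyte markers, Adipoq, Lep and Retn were at 0 in all 12 libraries. In these bulk samples fewer hepatocytes and less RNA per hepatocyte cannot be told apart, and the part of other cells in the results on members was not tested. The library ctrl replicate 1 stood apart from the other controls. Its macrophage sum was 2719 CPM against 505 and 619, its endothelial sum 1508 against 376 and 527, and it held the lowest of the 3 control values for 28 of the 35 members tested, against 31.1% of all genes. The erythroid sum of ctrl replicate 1 was 1583 CPM against 19.6 and 154. Counts of changed members are therefore given with and without ctrl replicate 1. Members were also unevenly ranked among the uninjured knockouts. Replicate 2 held the highest value for 23 of 35 and the lowest for 0, against 33.1% and 34.9% of all genes. Replicate 3 of Yap/Taz KO held the lowest for 21, against 31.8%.

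With all libraries in the fit, fewer than 1 in 2 of the members tested passed the threshold 48 h after injury in either genotype. All that passed fell. The change, passing or not, was below 0 for 32 of 35 members in controls and 34 in knockouts. Among the 10780 genes tested it was below 0 for 5208 and 5204. In controls 16 of 35 members (45.7%) passed the test, where 22.5% of all genes tested did; all 16 fell, against 12% of all genes, while 10.5% of all genes and no member rose. In knockouts 15 (42.9%) passed, where 17.8% of all genes did; all 15 fell, against 8.35% of all genes, while 9.42% of all genes and no member rose. The median member changed by a log2 value of -0.93 in controls and -0.70 in knockouts, against 0.03 in both for all genes tested. In controls 20 members (57.1%) had all 3 injured values below all 3 uninjured ones, against 17.5% of all genes, and in knockouts 17 (48.6%) against 18.1%. No member lay wholly higher after injury in controls (19.1% of all genes did), and 1, Acot2, did in knockouts (21.2% of all genes). The members, and the pathway lists further on, were chosen with earlier results of these data known. The part of that choice in these shares was not tested. Without ctrl replicate 1 the count in controls was 21, where 28.6% of all genes were called. In knockouts it was 8 without Yap/Taz KO + CCl4 replicate 1 (10.6% of all genes called) and 10 without Yap/Taz KO + CCl4 replicate 2 (11.6%). In these 3 fits the share of all genes called moved the same way as the members' count. It did not in every setting, since with library totals 24.8% of all genes were called in controls and 20.6% in knockouts. Scaled by library totals in place of TMM, which raises the median of all genes to a log2 change of 0.40 in each genotype, 10 members fell and 0 rose in controls, where 6.47% of all genes fell and 18.3% rose. In knockouts 8 fell and 1 rose, where 3.77% of all genes fell and 16.8% rose. The calls lost with totals were those of Cpt2, Acads, Hadh, Acaa1b, Pex11a and Vnn1 in controls and of Creb3l3, Slc27a2, Cpt2, Acads, Eci2, Pex11a and Angptl4 in knockouts. Changes below are thus relative to the bulk of genes.

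The 2 responses shared 10 members that passed the threshold in both genotypes: Slc27a2, Acsl1, Cpt2, Acadm, Acads, Acaa1a, Acaa1b, Pex11a, Acot3 and Cyp4a10. Another 6 passed in controls alone (Hadh, Decr2, Eci1, Etfa, Etfdh and Vnn1) and 5 in knockouts alone (Ppara, Creb3l3, Eci2, Ehhadh and Angptl4). The remaining 14 tested members passed in neither. None of these differences between genotypes passed the test of the difference itself, given further on.

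**Figure D1:**
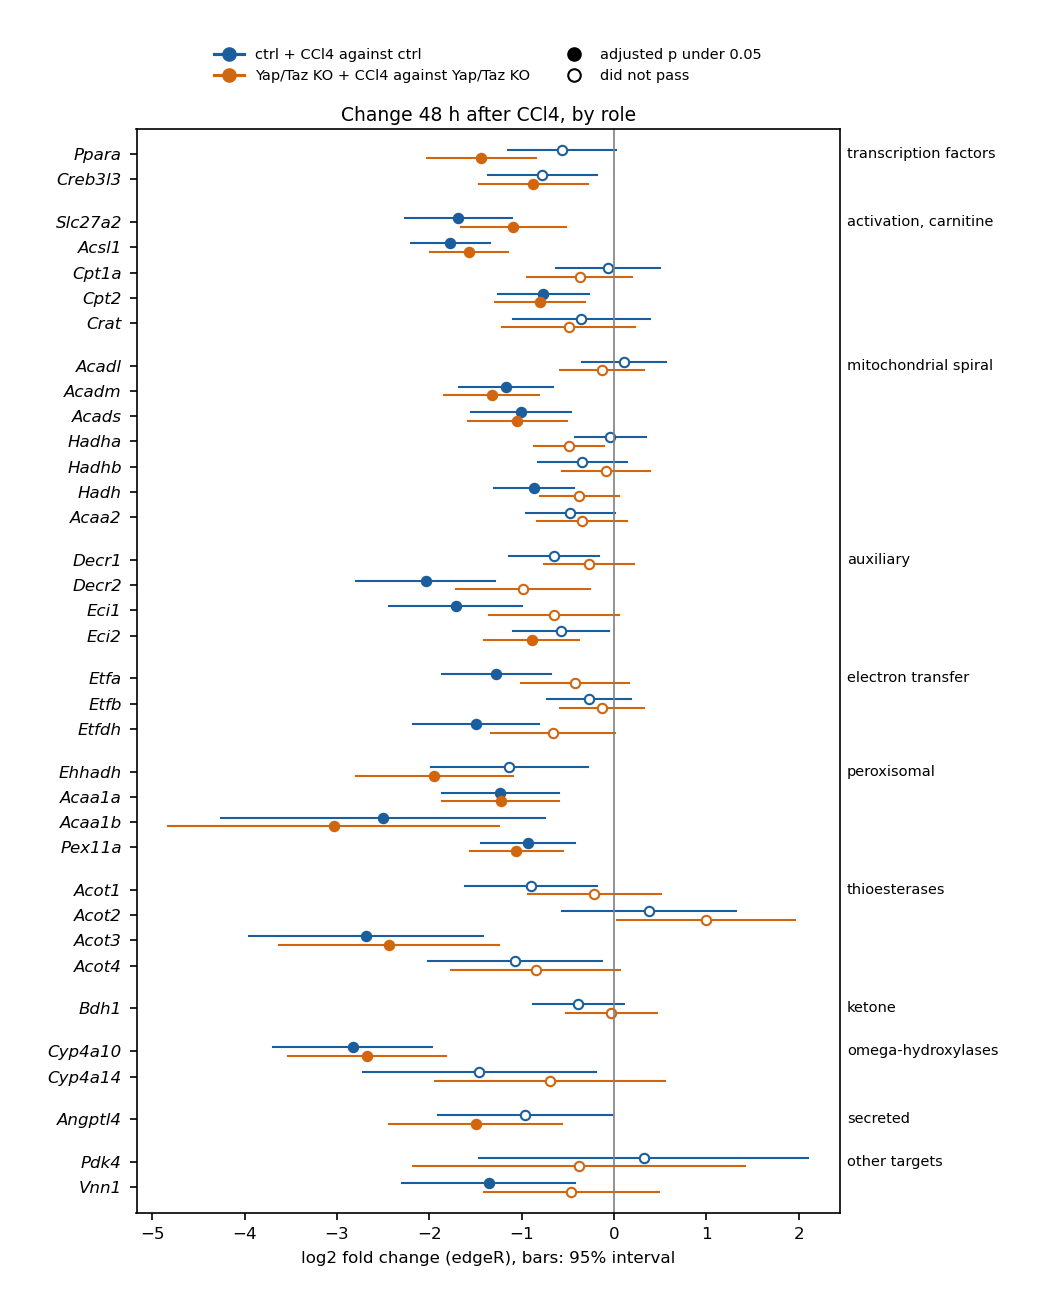
Log2 fold change after carbon tetrachloride for the 35 members tested, grouped by role, in controls (blue, ctrl + CCl4 against ctrl) and knockouts (orange, Yap/Taz KO + CCl4 against Yap/Taz KO), with 95% intervals as bars and filled points for an adjusted p under 0.05. Filled points, 16 in controls and 15 in knockouts, all lie left of 0.

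The receptor itself was among the members that fell in knockouts. Ppara lies at chr15:85734983-85802819 (GRCm38, plus strand). It stood at 101, 169 and 139 CPM in ctrl and at 103, 98.2 and 75.1 in ctrl + CCl4, ranges that overlap. In Yap/Taz KO it stood at 182, 370 and 238 CPM and after injury at 88.7, 114 and 88.6, with no overlap. Its log2 fold change was -0.56 (SE 0.27, edgeR adjusted p = 0.167) in controls and -1.44 (SE 0.28, edgeR adjusted p = 0.00241) in knockouts. The injured groups averaged 92.2 ± 15.0 CPM in controls and 97.2 ± 14.9 in knockouts (SD, n = 3 each), and the uninjured ones 136 ± 34.0 and 263 ± 96.3. Creb3l3 encodes CREBH, a membrane-bound transcription factor that acts with PPAR alpha on fasting genes. It stood at 206, 456 and 420 CPM in ctrl and 207, 222 and 201 in ctrl + CCl4, where ctrl replicate 1 alone lay within the injured range. The knockout values were 337, 562 and 511 CPM before and 233, 244 and 292 after injury, with no overlap. Creb3l3 changed by -0.78 (SE 0.28, edgeR adjusted p = 0.0570) in controls and -0.87 (SE 0.28, edgeR adjusted p = 0.0412) in knockouts. In controls it passed without ctrl replicate 1 (-1.06, edgeR adjusted p = 0.0034) or Yap/Taz KO replicate 1 (0.0459), and in DESeq2 (0.0459). In knockouts its call was lost without any 1 of 8 libraries, namely ctrl + CCl4 replicates 1 to 3 (edgeR adjusted p = 0.0531 to 0.0598), Yap/Taz KO replicates 2 and 3 (0.154 and 0.111) and Yap/Taz KO + CCl4 replicates 1 to 3 (0.0624 to 0.139).

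PPAR alpha and RXR bind a direct repeat of 2 half-sites with 1 base between them, so the promoters of the members were searched for it. RefSeq promoter windows on GRCm38.p6, from 250 bases before to 50 after a start site, were at hand for 30 of the 37 genes (34 windows). Cyp4a14, Crat, Cyp4a10, Acaa2, Vnn1, Angptl4 and Decr1 had no window in the table. The motif, the letters AGGTCA, then 1 base of any kind (N), then AGGTCA again, on either strand with at most 2 mismatches, was found in 3 of the 34 windows (8.82%) and in 3.86% of the 32851 windows of all genes. The 3 windows are shown because they carry the match, in capitals. That of Etfa is chr9:55512194-55512493 (minus strand), that of Creb3l3 chr10:81092542-81092841 (minus strand) and that of Acot4 chr12:84038129-84038428 (plus strand), each 5′ to 3′ in the direction of the gene.
Etfa: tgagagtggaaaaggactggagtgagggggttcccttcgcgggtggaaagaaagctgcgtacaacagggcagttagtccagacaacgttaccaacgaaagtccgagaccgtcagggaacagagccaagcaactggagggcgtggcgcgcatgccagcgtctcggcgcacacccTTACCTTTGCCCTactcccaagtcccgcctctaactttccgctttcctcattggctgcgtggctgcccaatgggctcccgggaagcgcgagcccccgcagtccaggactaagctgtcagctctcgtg
Creb3l3: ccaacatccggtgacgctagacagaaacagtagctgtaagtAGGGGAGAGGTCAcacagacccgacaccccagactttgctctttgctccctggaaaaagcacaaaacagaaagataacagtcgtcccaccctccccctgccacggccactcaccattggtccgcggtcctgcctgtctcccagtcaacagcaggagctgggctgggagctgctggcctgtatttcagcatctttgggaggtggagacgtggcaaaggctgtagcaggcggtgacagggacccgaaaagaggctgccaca
Acot4: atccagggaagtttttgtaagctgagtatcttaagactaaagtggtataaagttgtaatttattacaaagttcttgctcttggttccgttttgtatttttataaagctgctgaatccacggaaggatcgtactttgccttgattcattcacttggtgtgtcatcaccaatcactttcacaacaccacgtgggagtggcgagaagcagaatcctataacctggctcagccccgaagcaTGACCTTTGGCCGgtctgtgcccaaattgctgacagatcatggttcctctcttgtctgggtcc
Read on its own strand, the match is AGGGCAAAGGTAA in Etfa, AGGGGAGAGGTCA in Creb3l3 and CGGCCAAAGGTCA in Acot4, with 2 mismatches in each. It lies from 77 to 65 bases before the start site of Etfa, from 209 to 197 before that of Creb3l3 and from 13 to 1 before that of Acot4. Etfa passed the threshold after injury in controls, Creb3l3 in knockouts, and Acot4 in neither genotype. A match of letters does not show binding, and binding was not measured here.

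**Figure D2:**
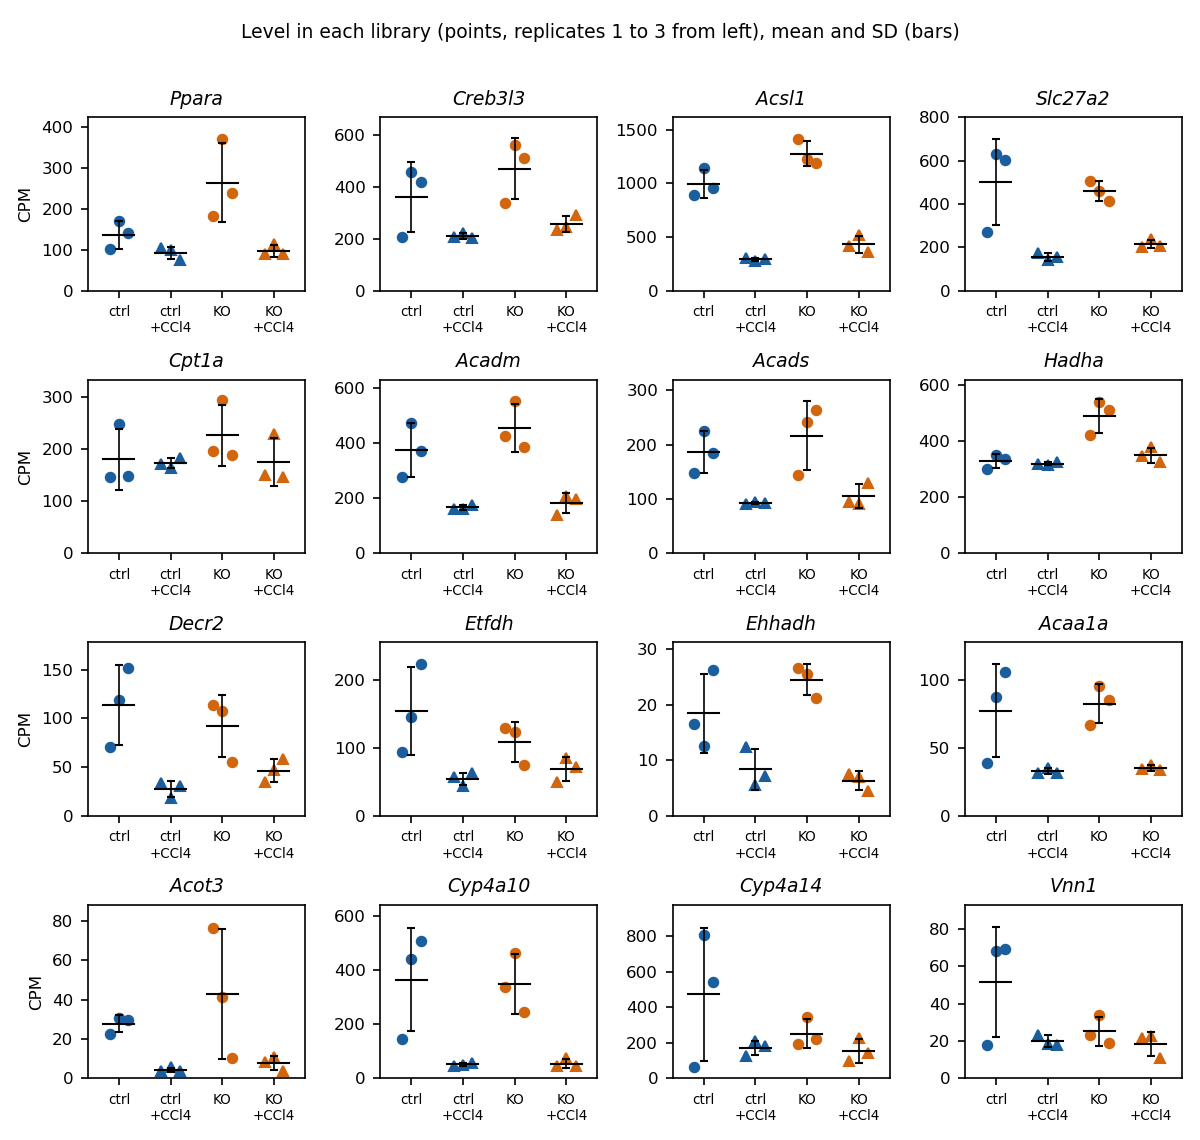
Level in CPM (vertical axis, from 0) of 16 members in each of the 12 libraries, with controls in blue, knockouts in orange, circles for uninjured and triangles for injured samples; horizontal lines mark the group mean and bars 1 SD (n = 3). Acsl1, Acadm and Cyp4a10 have no overlap between injured and uninjured libraries of either genotype, Cpt1a overlaps in both, and ctrl replicate 1, the leftmost point of each panel, is low for Slc27a2, Cyp4a14 and Vnn1.

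Of the 5 members for uptake, activation and carnitine transfer 3 fell in each genotype, Acsl1, Slc27a2 and Cpt2. Acsl1, the main long-chain acyl-CoA synthetase of liver (chr8:46471037-46536051, plus strand), stood at 888, 1140 and 953 CPM in ctrl and 305, 276 and 291 in ctrl + CCl4. In knockouts it stood at 1413, 1231 and 1190 CPM before and 419, 514 and 358 after injury. It fell by 1.77 on the log2 scale in controls (SE 0.20, 3.42-fold lower, edgeR adjusted p = 2.55e-05) and by 1.57 in knockouts (SE 0.20, 2.97-fold lower, edgeR adjusted p = 0.000102), and the injured and uninjured ranges were far apart in both. Slc27a2 encodes FATP2, which activates very long-chain fatty acids. Its values were 273, 630 and 603 CPM in ctrl, 174, 140 and 153 in ctrl + CCl4, 505, 462 and 416 in Yap/Taz KO and 203, 238 and 207 in Yap/Taz KO + CCl4. It fell 3.22-fold in controls (log2 -1.69, SE 0.27, edgeR adjusted p = 0.000466) and 2.13-fold in knockouts (log2 -1.09, SE 0.27, edgeR adjusted p = 0.0109), a call lost without Yap/Taz KO + CCl4 replicate 1 (edgeR adjusted p = 0.0519).

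Cpt1a, the outer-membrane carnitine palmitoyltransferase and rate-limiting entry to mitochondrial oxidation, did not pass in either genotype. It stood at 146, 249 and 148 CPM in ctrl and 172, 164 and 183 in ctrl + CCl4, with the injured values inside the control range. In knockouts it stood at 198, 295 and 189 CPM before and 151, 229 and 146 after injury. The log2 fold changes were -0.06 (95% interval -0.63 to 0.50) and -0.37 (-0.94 to 0.19), with edgeR adjusted p = 0.894 and 0.369. Scaled by library totals both were above 0, at 0.31 and 0.02. Cpt2, its partner on the inner membrane, stood at 84.3, 137 and 143 CPM in ctrl, 73.6, 58.6 and 81.8 in ctrl + CCl4, 114, 125 and 144 in Yap/Taz KO and 75.1, 73.3 and 71.6 in Yap/Taz KO + CCl4. All injured values lay below all uninjured ones of the same genotype. Cpt2 fell by 0.77 (SE 0.23, edgeR adjusted p = 0.0260) in controls and by 0.80 (SE 0.23, edgeR adjusted p = 0.0257) in knockouts (log2). The call in controls was lost without ctrl replicate 2 or 3 or ctrl + CCl4 replicate 1 or 2 (edgeR adjusted p = 0.0732 to 0.122), without the low-count filter (0.0558) and in the fit of 6 samples (0.0808). That in knockouts was lost without Yap/Taz KO replicate 2 or 3 or any injured knockout library (0.0607 to 0.0895). Crat, which moves acetyl groups onto carnitine, changed by -0.35 and -0.49 and passed in neither.

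Of the 7 tested members of the mitochondrial spiral 3 fell in controls, Acadm, Acads and Hadh, and 2 in knockouts, Acadm and Acads. Acadm, the medium-chain acyl-CoA dehydrogenase (chr3:153922357-153944632, minus strand), stood at 277, 473 and 372 CPM in ctrl, 162, 161 and 175 in ctrl + CCl4, 427, 552 and 386 in Yap/Taz KO and 139, 208 and 198 in Yap/Taz KO + CCl4. It fell 2.25-fold in controls (log2 -1.17, SE 0.24, edgeR adjusted p = 0.00276) and 2.50-fold in knockouts (log2 -1.32, SE 0.24, edgeR adjusted p = 0.00153). Acads, the short-chain enzyme, stood at 148, 225 and 185 CPM in ctrl, 90.5, 94.3 and 92.1 in ctrl + CCl4, 144, 242 and 264 in Yap/Taz KO and 94.4, 90.0 and 130 in Yap/Taz KO + CCl4. Its fall was 2.01-fold (log2 -1.01, SE 0.25, edgeR adjusted p = 0.0102) in controls. In knockouts it was 2.07-fold (log2 -1.05, SE 0.25, edgeR adjusted p = 0.00999), a call lost without Yap/Taz KO + CCl4 replicate 1 or 2 (edgeR adjusted p = 0.0523 and 0.0508). Injured and uninjured values of both dehydrogenases did not overlap in either genotype. Acadl, the long-chain enzyme, stood between 237 and 460 CPM in all 12 libraries and changed by 0.10 in controls (95% interval -0.35 to 0.56) and -0.13 in knockouts (-0.58 to 0.33).

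Hadh, the short-chain 3-hydroxyacyl-CoA dehydrogenase, stood at 407, 458 and 451 CPM in ctrl and 254, 204 and 263 in ctrl + CCl4. In Yap/Taz KO it stood at 495, 571 and 370 CPM and after injury at 361, 372 and 372, where the third uninjured library overlapped the injured ones. It fell by 0.87 in controls (SE 0.20, edgeR adjusted p = 0.00631) and changed by -0.38 in knockouts (SE 0.20, edgeR adjusted p = 0.220). Acaa2, the mitochondrial thiolase of the last step, changed by -0.47 and -0.35 (edgeR adjusted p = 0.160 and 0.329). Hadha and Hadhb encode the subunits of the trifunctional protein, which carries out the middle and last steps on long chains. Hadha stood at 300 to 349 CPM in ctrl and 316 to 325 in ctrl + CCl4, and changed by -0.04 (95% interval -0.42 to 0.34). In knockouts it stood at 423, 538 and 509 CPM before and 348, 378 and 324 after injury, with no overlap, and changed by -0.49 (edgeR adjusted p = 0.0750; 0.0384 in DESeq2). Hadhb stood between 32.6 and 61.8 CPM in all libraries and changed by -0.35 and -0.09. The 3′ end of Hadha overlaps Garem2 on the other strand by 75 bases.

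Hadha and Hadhb lie head to head on chromosome 5, with RefSeq start sites 273 bases apart, so their promoter windows share 228 bases. The window of Hadhb, chr5:30155003-30155302 (plus strand), is shown because it holds the 228 bases that both windows share, in capitals. These bases lie between the 2 RefSeq start sites and hold neither of them. In GENCODE M21 the 5′ end of Hadha lies within these bases, at chr5:30155162, and that of Hadhb outside them, at chr5:30155248.
Hadhb: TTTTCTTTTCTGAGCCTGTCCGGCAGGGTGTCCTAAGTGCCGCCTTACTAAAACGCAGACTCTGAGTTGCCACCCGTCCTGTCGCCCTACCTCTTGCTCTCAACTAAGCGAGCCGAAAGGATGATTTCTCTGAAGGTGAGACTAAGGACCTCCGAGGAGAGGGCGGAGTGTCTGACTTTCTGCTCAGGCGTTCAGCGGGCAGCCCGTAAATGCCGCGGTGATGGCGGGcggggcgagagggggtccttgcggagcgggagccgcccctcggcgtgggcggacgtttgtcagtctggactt
The 2 genes with this shared region passed the threshold in neither genotype after injury.

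Acadvl, the very long-chain acyl-CoA dehydrogenase of the inner membrane, could not be assessed. It held 0, 0 and 5 counts in ctrl, 1 in each ctrl + CCl4 library, 0 in each Yap/Taz KO library, and 1, 0 and 7 in Yap/Taz KO + CCl4. Its 3′ end, where these libraries take their tag, overlaps Dvl2 on the opposite strand over 2119 bases (chr11:70010183-70012301). The sources used here do not give the counting rule, and its part in these low counts was not tested.

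Of the auxiliary enzymes for unsaturated chains, Decr2 and Eci1 fell in controls and Eci2 in knockouts. Decr2, the peroxisomal 2,4-dienoyl-CoA reductase, stood at 70.3, 119 and 152 CPM in ctrl, 33.3, 18.6 and 30.9 in ctrl + CCl4, 114, 107 and 55.4 in Yap/Taz KO and 34.4, 46.8 and 58.1 in Yap/Taz KO + CCl4. It fell 4.11-fold in controls (log2 -2.04, SE 0.35, edgeR adjusted p = 0.000837). In knockouts the ranges overlapped and the change of -0.98 did not pass (SE 0.34, edgeR adjusted p = 0.0587). It passed there without ctrl replicate 1 (0.0286), ctrl replicate 3 (0.0465) or Yap/Taz KO replicate 3 (0.0254), and in DESeq2 (0.0498). Eci1, a mitochondrial enoyl-CoA isomerase, stood at 64.2, 115 and 175 CPM in ctrl, 28.9, 35.4 and 42.8 in ctrl + CCl4, 98.0, 104 and 57.1 in Yap/Taz KO and 44.5, 63.8 and 56.5 in Yap/Taz KO + CCl4. Its change was -1.72 (SE 0.34, 3.28-fold lower, edgeR adjusted p = 0.00211) in controls and -0.65 (SE 0.33, edgeR adjusted p = 0.197) in knockouts, where the lowest uninjured library lay within the injured range. Eci2, the second isomerase, stood at 86.4, 128 and 163 CPM in ctrl, 93.8, 71.7 and 88.0 in ctrl + CCl4, 128, 172 and 158 in Yap/Taz KO and 80.2, 73.3 and 93.6 in Yap/Taz KO + CCl4. The ranges overlapped in controls only. Eci2 fell in knockouts (-0.89, SE 0.24, edgeR adjusted p = 0.0190), a call lost when leaving out replicate 2 or 3 of Yap/Taz KO, or replicate 1 or 2 of Yap/Taz KO + CCl4 (edgeR adjusted p = 0.0529 to 0.0792). Its change in controls was -0.57 (edgeR adjusted p = 0.107), and that of Decr1, the mitochondrial reductase, was -0.65 (edgeR adjusted p = 0.0556). Without ctrl replicate 1 both passed there, at edgeR adjusted p = 0.0184 and 0.0217.

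Electrons from the acyl-CoA dehydrogenases pass to the respiratory chain through ETF, made of the products of Etfa and Etfb, and its reductase Etfdh. Etfa stood at 153, 218 and 326 CPM in ctrl, 130, 79.0 and 79.3 in ctrl + CCl4, 168, 188 and 159 in Yap/Taz KO and 109, 130 and 143 in Yap/Taz KO + CCl4. It fell in controls (-1.27, SE 0.28, edgeR adjusted p = 0.00434). In knockouts its ranges did not overlap either, but the change of -0.43 did not pass (SE 0.27, edgeR adjusted p = 0.321). Etfdh stood at 94.2, 146 and 224 CPM in ctrl, 56.8, 44.5 and 62.5 in ctrl + CCl4, 129, 123 and 74.5 in Yap/Taz KO and 50.5, 85.3 and 71.3 in Yap/Taz KO + CCl4. It fell 2.83-fold in controls (log2 -1.50, SE 0.32, edgeR adjusted p = 0.00373) and changed by -0.66 in knockouts (SE 0.31, edgeR adjusted p = 0.173), with overlap there. Etfb stood between 401 and 649 CPM in all libraries and changed by -0.27 and -0.13. A gene model on the same strand, Gm45233, spans Etfb, so its counts are uncertain.

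All 4 peroxisomal members fell in knockouts and 3 of 4 in controls. Ehhadh, the bifunctional enzyme of the peroxisomal spiral, stood at 16.5, 12.6 and 26.3 CPM in ctrl and 12.5, 5.49 and 7.09 in ctrl + CCl4, ranges that nearly met. In Yap/Taz KO it stood at 26.5, 25.6 and 21.3 CPM and after injury at 7.58, 6.95 and 4.40, well apart. It fell 3.85-fold in knockouts (log2 -1.95, SE 0.40, edgeR adjusted p = 0.00359). In controls the change of -1.13 did not pass (SE 0.40, edgeR adjusted p = 0.0529), and it did without ctrl replicate 2 (0.0364) or ctrl + CCl4 replicate 1 (0.0301). Pex11a, which promotes peroxisome division, stood at 98.3, 160 and 154 CPM in ctrl, 69.2, 78.7 and 68.6 in ctrl + CCl4, 141, 237 and 184 in Yap/Taz KO and 88.1, 86.6 and 95.1 in Yap/Taz KO + CCl4. It fell by 0.93 (SE 0.24, edgeR adjusted p = 0.0118) and by 1.06 (SE 0.24, edgeR adjusted p = 0.00648) in log2 units, with no overlap in either genotype.

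The peroxisomal thiolases Acaa1a (chr9:119339676-119350299) and Acaa1b (chr9:119148023-119157093) are close copies. In the last 500 bases of their transcripts, 31.6% of the 50-base words of Acaa1a occur in Acaa1b, so the counting could split reads between them. Acaa1a stood at 39.1, 87.1 and 106 CPM in ctrl, 31.5, 35.1 and 31.6 in ctrl + CCl4, 66.6, 95.1 and 85.2 in Yap/Taz KO and 34.1, 37.3 and 33.9 in Yap/Taz KO + CCl4. It fell by 1.23 on the log2 scale in both genotypes (SE 0.30 each, edgeR adjusted p = 0.00840 and 0.00999), with ctrl replicate 1 closest to the injured libraries. Acaa1b held few counts, at 22, 22 and 11 in ctrl, 1, 9 and 5 in ctrl + CCl4, 37, 15 and 12 in Yap/Taz KO and 0, 7 and 5 in Yap/Taz KO + CCl4. The changes of Acaa1b were -2.50 (SE 0.82, edgeR adjusted p = 0.0397) and -3.04 (SE 0.84, edgeR adjusted p = 0.0211). Leaving out any 1 of 6 libraries ended its call in controls (ctrl replicate 2 or 3, any ctrl + CCl4 replicate or Yap/Taz KO + CCl4 replicate 3, edgeR adjusted p = 0.0515 to 0.135). In knockouts Yap/Taz KO replicate 1 and Yap/Taz KO + CCl4 replicates 1 and 3 did so (0.0562 to 0.106). The change of Acaa1b was -3.12 without ctrl + CCl4 replicate 2 in controls, and in knockouts -2.25 without Yap/Taz KO replicate 1 and -3.69 without Yap/Taz KO + CCl4 replicate 2. Summed into 1 row, a check added after seeing the data, the pair changed by -1.33 (SE 0.27, edgeR adjusted p = 0.00273) and -1.35 (SE 0.27, edgeR adjusted p = 0.00300). On the other strand Slc22a14 covers all of Acaa1a and Dlec1 overlaps the 3′ end of Acaa1b, so their counts stay uncertain where strand was not used.

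Acyl-CoA thioesterases release free fatty acids from CoA. Acot1 to Acot4 form a cluster within chr12:83987861-84060402, and of these neighbours Acot3 alone passed the threshold, with a fall. Acot3, a peroxisomal enzyme, stood at 22.6, 30.7 and 29.9 CPM in ctrl and 3.66, 5.49 and 3.54 in ctrl + CCl4. In Yap/Taz KO its libraries were spread over 76.3, 41.5 and 10.2 CPM, and the injured ones stood at 8.52, 11.1 and 3.77, overlapping the lowest. It fell 6.43-fold in controls (log2 -2.69, SE 0.60, edgeR adjusted p = 0.00476) and 5.42-fold in knockouts (log2 -2.44, SE 0.56, edgeR adjusted p = 0.00741). Without Yap/Taz KO replicate 1, the library at 76.3 CPM, the knockout change of Acot3 was -1.72 (edgeR adjusted p = 0.0435). Acot1, the cytosolic enzyme, changed by -0.90 and -0.21, and Acot4, a peroxisomal one, by -1.07 and -0.85. A gene model on the same strand, Gm49366, covers 9667 bases of Acot4 with its 3′ end and 6470 bases of Acot3 without it, so the counts of both are uncertain. Acot1 passed in controls without ctrl replicate 1 (edgeR adjusted p = 0.0386) and Acot4 without ctrl + CCl4 replicate 1 (0.0251). Acot2, the mitochondrial enzyme, was the member with the highest change in both genotypes, at 0.38 (edgeR adjusted p = 0.593) and 1.00 (edgeR adjusted p = 0.147). In knockouts it stood at 21.7, 15.9 and 5.54 CPM before and 27.1, 26.9 and 31.1 after injury, with no overlap, and it passed there when scaled by library totals (1.40, edgeR adjusted p = 0.0355). Counts of Acot1 to Acot6 summed, added after seeing the data, changed by -0.78 and -0.61 (edgeR adjusted p = 0.0641 and 0.158).

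Cyp4a10 had the largest fall in controls among the 35 members. CYP4A enzymes hydroxylate the omega end of fatty acids and are classical targets of PPAR alpha. Cyp4a10 (chr4:115518264-115533649, plus strand) stood at 147, 441 and 508 CPM in ctrl, 46.9, 50.0 and 56.7 in ctrl + CCl4, 337, 465 and 244 in Yap/Taz KO and 44.5, 74.9 and 44.0 in Yap/Taz KO + CCl4. It fell 7.12-fold in controls (log2 -2.83, SE 0.40, edgeR adjusted p = 0.000181) and 6.40-fold in knockouts (log2 -2.68, SE 0.40, edgeR adjusted p = 0.000376), with no overlap. Its neighbour Cyp4a14 (chr4:115486200-115496142, minus strand) stood at 65.8, 808 and 544 CPM in ctrl, and at 127, 208 and 180 in ctrl + CCl4. Here ctrl replicate 1 lay below every injured control. Cyp4a14 changed by -1.46 in controls (SE 0.59, edgeR adjusted p = 0.0926), and by -1.98 without ctrl replicate 1 (edgeR adjusted p = 0.000612). With no low-count filter it passed too (1.9e-06). In knockouts it stood at 194, 344 and 219 CPM before and 95.6, 229 and 143 after injury (-0.70, SE 0.58, edgeR adjusted p = 0.456). In the last 500 bases of its transcript Cyp4a10 shares 5.9% of its 50-base words with Cyp4a31 and none with Cyp4a14 or Cyp4a32. In the other direction, 55.7% of such words of Cyp4a32 and 8.6% of those of Cyp4a31 occur in Cyp4a10. The counting could therefore mix reads of these genes. Summed with Cyp4a31 and Cyp4a32, a check added after seeing the data, the 2 members changed by -1.75 (SE 0.46, edgeR adjusted p = 0.0137) in controls and -1.30 (SE 0.46, edgeR adjusted p = 0.0634) in knockouts.

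The secreted targets were measured unevenly. Angptl4, an inhibitor of lipoprotein lipase, stood at 34.1, 28.7 and 71.1 CPM in ctrl, 24.9, 22.3 and 20.6 in ctrl + CCl4, 37.9, 103 and 32.4 in Yap/Taz KO and 12.9, 22.7 and 25.4 in Yap/Taz KO + CCl4. It fell in knockouts (-1.50, SE 0.44, edgeR adjusted p = 0.0287) and changed by -0.96 in controls (SE 0.44, edgeR adjusted p = 0.138), without overlap in either. The knockout value rests on Yap/Taz KO replicate 2, the library at 103 CPM: without it the change was -0.78 (edgeR adjusted p = 0.228). The call was also lost without Yap/Taz KO + CCl4 replicate 1 (0.123) or 2 (0.0705), and Angptl4 passed in controls without the low-count filter (0.0274). Fgf21, the fasting hormone of the liver, was near the limit of detection, with 2, 1 and 0 counts in ctrl, 0, 2 and 1 in ctrl + CCl4, 1, 4 and 0 in Yap/Taz KO and 3, 4 and 0 in Yap/Taz KO + CCl4. No difference in Fgf21 was detectable at this depth.

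Vnn1, the pantetheinase, stood at 17.7, 67.9 and 68.9 CPM in ctrl, 23.4, 18.6 and 17.7 in ctrl + CCl4, 23.3, 33.8 and 18.7 in Yap/Taz KO and 21.8, 22.4 and 10.7 in Yap/Taz KO + CCl4. It fell in controls (-1.36, SE 0.44, edgeR adjusted p = 0.0368) although ctrl replicate 1 lay below all 3 injured controls. Its change in knockouts was -0.46 (SE 0.44, edgeR adjusted p = 0.522). The call in controls was lost without ctrl replicate 2 or 3, any ctrl + CCl4 replicate or Yap/Taz KO + CCl4 replicate 1 (edgeR adjusted p = 0.0519 to 0.138), and in the fit of 6 samples (0.0690). Pdk4, the kinase that shuts off pyruvate dehydrogenase when fat is burned, was low at 2.88, 5.54 and 2.13 CPM in ctrl, 1.83, 9.15 and 2.26 in ctrl + CCl4, 7.58, 2.90 and 1.70 in Yap/Taz KO and 4.10, 4.42 and 0.628 in Yap/Taz KO + CCl4. Its intervals, -1.46 to 2.10 in controls and -2.17 to 1.41 in knockouts on the log2 scale, do not fix a direction. Bdh1, which interconverts the ketone bodies, changed by -0.39 (95% interval -0.88 to 0.10) and -0.03 (-0.52 to 0.46).

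Genes of the same pathways outside the 37 were counted in the same fit, 87 in 5 lists, of which 76 were tested. In controls 39 fell and 5 rose, with a median of -0.99, and in knockouts 26 fell and 4 rose, with a median of -0.68. Of all genes tested 12% fell and 10.5% rose in controls, and 8.35% fell and 9.42% rose in knockouts. The counts of the 5 single lists that follow are to be read beside the same shares. Among other mitochondrial oxidation and carnitine genes 15 of 20 fell in controls and 10 in knockouts, and none rose. Slc27a5, which activates fatty and bile acids, stood at 606 to 644 CPM in ctrl and 82.2 to 112 in ctrl + CCl4, and fell by 2.71 (SE 0.22, edgeR adjusted p = 3.56e-06) in controls and 2.87 (SE 0.23, edgeR adjusted p = 1.67e-06) in knockouts (log2). Acadsb, the dehydrogenase of short branched chains, fell by 1.58 and 1.46. Among other peroxisomal genes 10 of 19 fell in controls and 8 in knockouts. Cat, the catalase that breaks down hydrogen peroxide, fell by 2.33 and 2.11, and Pecr, a peroxisomal enoyl-CoA reductase, by 2.13 and 1.69.

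Ketone body genes moved in both directions, with 3 of 7 lower and 2 higher in controls, and 1 each in knockouts. The genes that rose were Oxct1, which breaks ketone bodies down, in both genotypes (1.67 and 2.17), and Slc16a6, a monocarboxylate transporter, in controls (1.45). Of 13 other PPAR alpha targets tested, 5 fell and 3 rose in controls, and 3 fell and 3 rose in knockouts. Cyp2j5, a fatty acid epoxygenase, fell by 1.77 and 1.58, and Cyp4f15, an omega-hydroxylase, fell by 2.24 and 1.38. The targets that rose, named after their values were seen, were Cd36 (1.75 and 1.52) and Ucp2 (2.02 and 2.02) in both genotypes, Plin2 (0.88) in controls and Cyp4a31 (1.20) in knockouts. Oxct1, Cd36 and Ucp2 are not specific to hepatocytes, and Cd36 and Ucp2 are known in macrophages, whose summed markers are given above; the part of other cells in these rises was not tested.

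Of 17 partners and coregulators of the receptor 6 fell in controls and 4 in knockouts, and none rose. Rxra, which encodes its DNA-binding partner RXR alpha, stood at 133, 240 and 325 CPM in ctrl, 93.4, 152 and 118 in ctrl + CCl4, 204, 257 and 238 in Yap/Taz KO and 118, 132 and 145 in Yap/Taz KO + CCl4. Its changes were -0.93 (SE 0.29, edgeR adjusted p = 0.0283) in controls and -0.82 (SE 0.28, edgeR adjusted p = 0.0584) in knockouts. The call in controls was lost without ctrl replicate 2 or 3 or ctrl + CCl4 replicate 1 or 3 (edgeR adjusted p = 0.0653 to 0.155) and in the fit of 6 samples (0.0790). Rxra passed in knockouts without ctrl replicate 1 (0.0150) or 3 (0.0329). Ppargc1a, the coactivator PGC-1 alpha, stood at 34.1 to 45.3 CPM in ctrl and 6.59 to 13.1 in ctrl + CCl4, and at 26.4 to 87.8 in Yap/Taz KO and 11.1 to 21.7 after injury. It fell by 1.92 (SE 0.43, edgeR adjusted p = 0.00476) and 1.72 (SE 0.41, edgeR adjusted p = 0.00973), the latter lost without replicate 2 of Yap/Taz KO (-1.07, edgeR adjusted p = 0.0784) or of Yap/Taz KO + CCl4 (0.0520). Lpin1, a phosphatidate phosphatase that also coactivates PPAR alpha, fell by 3.17 and 2.58. Its knockout value was -1.27 (edgeR adjusted p = 0.0561) without Yap/Taz KO replicate 2, the library at 905 CPM against 137 and 196.

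**Figure D3:**
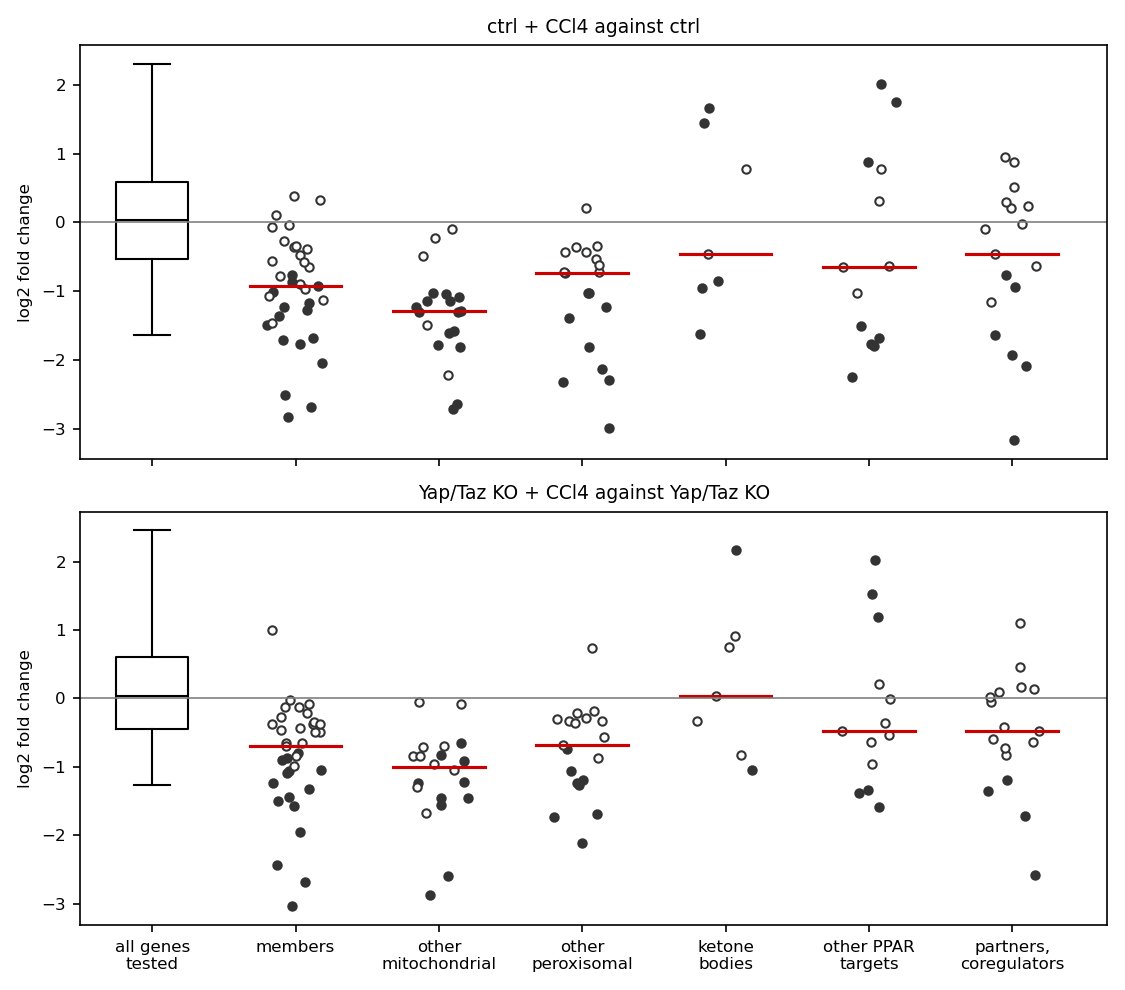
Log2 fold change after injury (vertical axis) of the 35 members tested and of the 76 tested genes of the 5 pathway lists, each gene a point (filled where the adjusted p was under 0.05, spread sideways for legibility) and each list median a red line, in controls (top) and knockouts (bottom). The box for all 10780 genes tested shows the quartiles, with whiskers at the 5th and 95th percentiles; the median of the members lies at -0.93 and -0.70, and that of all genes at 0.03 in both panels.

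Whether the response to injury differed between genotypes was tested as an interaction, the response in knockouts minus that in controls. In edgeR 0 of the 35 members passed, where 0% of all genes passed. DESeq2 called 11 genes in all and no member. At an unadjusted p under 0.05 the interaction held 4 members, against 8.11% of all genes tested. These were Ppara (-0.87, SE 0.39, edgeR adjusted p = 0.601), Decr2 (1.05, SE 0.48, 0.614), Eci1 (1.06, SE 0.47, 0.601) and Etfa (0.85, SE 0.39, 0.614). For Ppara the knockout mean was 263 CPM against 136 in controls before injury, and 97.2 against 92.2 after it. For Decr2, Eci1 and Etfa all 3 uninjured knockout values lay below the control median and all 3 injured ones above the injured control median. None of these 4 differences is shown at the adjusted threshold, and intervals stay wide: that of Ppara ran from -1.70 to -0.05 and that of Eci1 from 0.07 to 2.06.

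Before injury 0 of 35 members differed between knockouts and controls in edgeR, where 0% of all genes did, and DESeq2 called 39 genes and no member. At an unadjusted p under 0.05 there were 3 members, against 9.46% of all genes. Ppara was higher by 0.95 (SE 0.27, 95% interval 0.36 to 1.54, edgeR adjusted p = 0.362) and lay above the controls in 3 of 3 knockout libraries. It passed only when the low-count filter was dropped (0.97, edgeR adjusted p = 0.0401). Hadha was higher by 0.58 (SE 0.18, edgeR adjusted p = 0.394), also in 3 of 3 libraries, and Vnn1 was lower by a log2 change of -1.02 (SE 0.44, edgeR adjusted p = 0.488) with overlap. Ppara, Acsl1 and Hadha lay wholly above the controls (8.57% of members, 5.81% of all genes) and Acot1 wholly below (2.86% against 4.92%). The uninjured difference was positive in 23 of the 35 members, with a median of 0.16 against -0.03 for all genes. It was positive in 5062 of the 10780 genes tested.

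After injury 0 of 35 members passed in edgeR between knockouts and controls, where 0% of all genes did, and DESeq2 called 25 genes and no member. The unadjusted p was under 0.05 for 3 members, against 5.69% of all genes: Acsl1 (0.57, SE 0.19, edgeR adjusted p = 0.803), Hadh (0.62, SE 0.20, 0.798) and Decr2 (0.75, SE 0.35, 0.858). All 3 were higher in injured knockouts. In 10 of 35 members (28.6%) the 3 injured knockouts lay wholly above the 3 injured controls, against 8.5% of all genes, and in 0 wholly below, against 7.81%. The 10 were Creb3l3, Slc27a2, Acsl1, Hadh, Acaa2, Decr1, Decr2, Eci1, Pex11a and Bdh1. For Hadh the values were 361, 372 and 372 CPM against 254, 204 and 263, and for Acsl1 419, 514 and 358 against 305, 276 and 291. Among the 10780 genes tested the difference was positive in 5295, with a median of -0.01. Over the 35 members it was positive in 28, with a median of 0.18. The hepatocyte marker sum differed the same way, at 115800 to 138100 CPM in injured knockouts and 82030 to 102400 in injured controls, while the macrophage sum was 1877 to 2877 against 2331 to 4129 and the cholangiocyte sum 92.6 to 220 against 381 to 459; of these 3 sums the macrophage ranges alone overlapped. Only 2 of the 7 cholangiocyte markers passed the low-count filter, so that sum may rest on few genes and need not measure cholangiocytes. The part of these 3 sums in the member values was not tested. Ppara itself differed by 0.08 (95% interval -0.51 to 0.66).

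**Figure D4:**
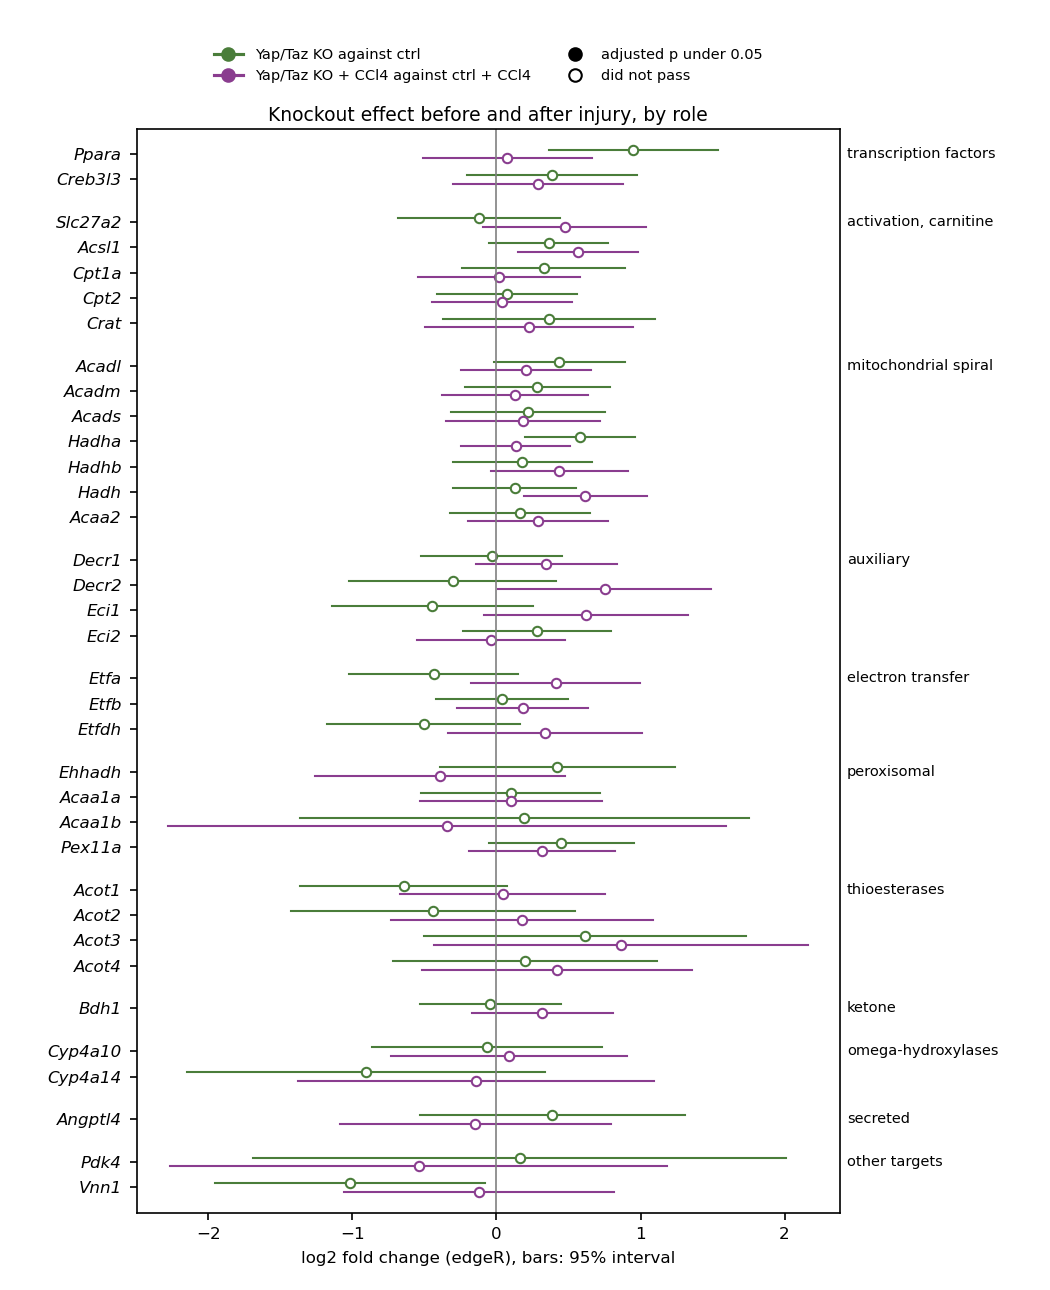
Log2 fold change of knockouts against controls for the 35 members, before (green) and after injury (purple), with 95% intervals as bars; all points are open because 0 passed the adjusted threshold in either state. Ppara and Hadha before injury, and Acsl1, Hadh and Decr2 after it, have intervals above 0, and Vnn1 before injury has one below 0.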

How the data were processed

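RNA of sorted mouse hepatocytes was measured in 12 libraries, made with the QuantSeq 3′ mRNA-Seq FWD kit, which reads a tag near the 3′ end of polyA RNA, per the labels' protocols. The values the authors deposited are raw, unscaled counts, with 1 line per gene symbol, as the whole numbers show. The submitters' processing notes list FastQC, cutadapt, STAR 2.6.1d, mm10 and GRCm38 but not what each was used for. The sources used here do not give the counter, annotation, strand setting, filters or whether molecular identifiers were used. The labels gave each sample's group and replicate number. Whether the samples came from separate animals is not stated, so p-values measure only how these samples vary, which may be technical. Replicates differed beyond counting noise (chi-square per degree of freedom 8.56 to 26.6).

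Counts were tested in edgeR 4.0.16 (R 4.3.3): filterByExpr with a minimum count of 10 and total of 15, which left 10780 of 37141 genes; TMM factors, 0.776 to 1.31; 1 coefficient for each of 4 groups over all 12 samples; quasi-likelihood F tests, called at a Benjamini-Hochberg adjusted p under 0.05. The fit was tested on simulated data. The alternatives were RLE factors, library totals as they are, testing without the low-count filter, DESeq2 1.42.0, fits of the 6 samples compared, a replicate block and leaving out each sample; summing the Acaa1, Acot1 to Acot6 and Cyp4a families, whose transcript ends share words to differing degrees or not at all, was added after seeing the data.

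The members and all lists were chosen with earlier results of these data known. All 37 members are accounted for by role, with every sample's value for each that passed in any comparison and for Ppara, Cpt1a, Fgf21 and Pdk4. Each pathway list gave the 2 genes with the smallest adjusted p in the controls' response; Rxra and Ppargc1a were always named; some genes the rule names are not reported here. Gene positions came from GENCODE M21 and promoters from RefSeq on GRCm38.p6.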

Additional observations from a re-analysis of the deposited data

How the results depend on the processing

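The calls rest on 3 libraries a group, and low counts limit Acadvl, Fgf21, Pdk4 and Acaa1b. In controls 16 members fell; the count was 10 with library totals and 13 to 21 when single libraries were left out, where 15% to 28.6% of all genes were called. In knockouts 15 fell; the count was 9 with library totals (1 of them rose) and 8 to 16 when single libraries were left out, where 10.6% to 21% were. Between knockouts and controls before injury the count of 0 became 1 without the low-count filter (Ppara), where 210 of all genes were called; after injury 109 and in the interaction 115 of all genes were called without it, and no member. With the replicate block 17 members were called in controls, where 24.1% of all genes were, and 15 in knockouts, where 19.4% were. No member was called elsewhere with it. No steady pairing by replicate number was seen: correlations of same-numbered deviations ran from -0.152 to 0.323, with 7 of 18 above 0.1. Their median was 0.0025, against -0.011 for unlike numbers. This check cannot decide whether some samples were paired. Summing the Acaa1, Acot and Cyp4a families into 1 line each gave 14 and 12. These counts are over fewer lines, because the members of a family are merged, so they cannot be set beside 16 and 15. The Acaa1 line passed in both genotypes, the Cyp4a line in controls alone and the Acot line in neither. In all 18 settings Slc27a2, Acsl1, Acadm, Decr2, Eci1, Etfa, Etfdh, Acaa1a, Acot3 and Cyp4a10 passed in controls, and Ppara, Acsl1, Acadm, Ehhadh, Acaa1a, Acot3 and Cyp4a10 in knockouts.

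Values that had passed no test turned sign in some settings, and beyond the upward shift of all genes with totals the cause was not tested. With library totals the log2 changes in controls were 0.31 for Cpt1a, 0.34 for Hadha, 0.032 for Hadhb and 0.11 for Etfb. In knockouts they were 0.017 for Cpt1a, 0.27 for Acadl, 0.29 for Hadhb, 0.016 for Hadh, 0.024 for Acaa2, 0.11 for Decr1, 0.24 for Etfb, 0.17 for Acot1, 0.36 for Bdh1 and 0.0066 for Pdk4. When single libraries were left out, the controls' values ranged from -0.20 to 0.24 for Cpt1a, from -0.10 to 0.0102 for Hadha and from -0.76 to 0.80 for Pdk4. Those of knockouts ranged from -0.28 to 0.0443 for Acadl, from -0.17 to 0.0522 for Hadhb, from -0.31 to 0.0201 for Etfb, from -0.16 to 0.0513 for Bdh1 and from -0.76 to 0.41 for Pdk4. The knockout effect on Ppara after injury was -0.0514 with library totals and ranged from -0.0556 to 0.18 without single libraries.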
